A study of Mus musculus with 2 samples.

Results

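MiR-143 and miR-145 are microRNAs, short RNAs that lower the output of the messenger RNAs they pair with, and they are made from neighbouring genes. The pair was taken as the spots whose probe name, without its species prefix, is miR_143 or miR_145. Of 377 probes other than controls, 2 met this rule, both with a human prefix, each printed as 4 spots per array, which gives 8 spots on each array. In the RefSeq gene table of the mouse, Mir145a and Mir143 lie on the same chromosome with 0 genes between them, and both lie inside Carmn, a long noncoding RNA gene whose synonyms include Mir143hg.

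As background, the pair is known for high levels in smooth muscle and in fibroblast-like cells of connective tissue. In vascular smooth muscle its transcription responds to serum response factor with myocardin and to TGF-beta and BMP signals, and both miRNAs favour the contractile state over growth. Mature miR-145 is known to restrain KLF4, KLF5 and the cartilage regulator SOX9, and miR-143 is known to increase as preadipocytes become fat cells.

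The cells were C3H10T1/2, a mouse line of mesenchymal cells able to become bone, cartilage or fat. One sample was kept for 3 days with BMP7, a bone morphogenetic protein, at 3.3 nM, and the other for 3 days with vehicle, and the study asked which miRNAs BMP7 regulates. Total RNA labelled with the dye Cy3 went onto 1 array per group. No p-value is therefore given, the number of arrays limits the precision, and any difference between the 2 arrays other than BMP7 cannot be told apart from it. Errors are SD or SE over the spots of a probe on an array (n = 4) and do not cover the spread between cultures. In such bulk RNA, fewer cells holding a miRNA and less of it per cell cannot be told apart either.

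Each array had 1728 spots in 16 print blocks. In the Cy3 channel the laser power reading was 3.17 with BMP7 and 2.45 with vehicle at equal gain, and the median local background was 4649 and 3756 intensity units. A miRNA was called detected when at least 2 of its 4 spots were brighter than their local background by more than 2 SD, taken over all local backgrounds on that array. By this rule 65 of 256 mouse miRNAs were detected on at least 1 array, 58 with vehicle, 41 with BMP7 and 34 on both. Of markers of other cell types, 1 of 6 was detected for blood (miR-223, log2 difference 1.01 ± 0.12), 1 of 6 for epithelium (miR-141), 1 of 2 for liver (miR-192), 0 of 1 for endothelium and 0 of 2 for neurons, and their part in the results was not tested. The other probes of the print block of miR-223 had a median difference of 0.60, and against it miR-223 was at 0.41. Of 4 miRNAs taken here as smooth muscle markers, which include the 2 members themselves, only the members were detected, while miR-1 and miR-133a were not. How particular these 4 are to smooth muscle was not tested.

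In the Cy3 channel miR-145 was lower with BMP7 as processed here, though not against the other probes of its print block, as given further on. Its 4 vehicle spots had a brightness of 9493, 9334, 9116 and 8917 units, and its BMP7 spots 7396, 8034, 7051 and 7146 units. All BMP7 spots were below all vehicle spots before any correction, a pattern seen for 23.1% of the 65 detected miRNAs. The local background around the probe ran the other way, at 3794, 4156, 2944 and 3115 units on the vehicle array and at 4841, 4760, 4516 and 4684 on the BMP7 array. The brightness above local background was therefore 5713 ± 410 units with vehicle and 2707 ± 380 with BMP7 (SD, n = 4 spots), a 2.11-fold lower net signal. A lower mean net signal with BMP7 was seen for 72.3% of the detected miRNAs, and a higher mean local background for 95.4%. All 4 spots of miR-145 passed the detection rule on both arrays.

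MiR-143 stood close to its local background, and its brightness and its net signal pointed opposite ways. Its brightness was 4418, 4343, 4747 and 4806 units with vehicle, and 5192, 5505, 5763 and 5958 with BMP7. All BMP7 spots were above all vehicle spots, which was the case for 24.6% of the detected miRNAs. The local background differed by more than the spots did, with a mean of 3477 ± 301 units for vehicle and 5009.8 ± 119 for BMP7 (SD, n = 4 spots). The net signal was 712, 579, 1572 and 1542 units with vehicle and 239, 634.9, 669 and 836 with BMP7. These net values overlapped, and their mean was 1101 ± 529 units with vehicle against 595 ± 253 with BMP7. A higher brightness joined with a lower net signal was found for 23.1% of the detected miRNAs. Of its 4 spots, 2 passed the detection rule with vehicle and 0 with BMP7. With a threshold of 1 standard deviation 4 and 3 spots passed, and with 3 standard deviations none did on either array.

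**Figure D1:**
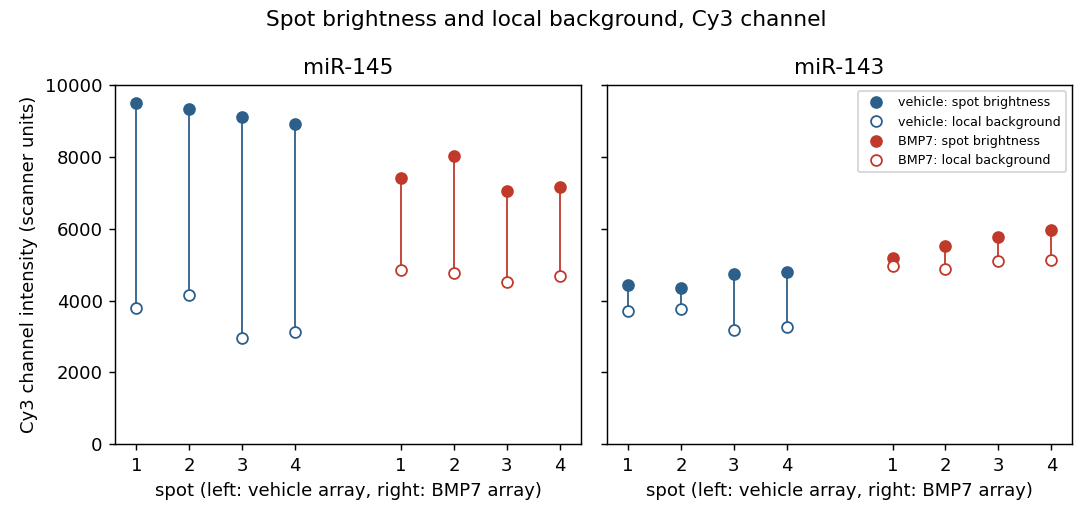
Brightness (filled points) and local background (open points) in the Cy3 channel of each of the 4 spots of miR-145 (left panel) and miR-143 (right panel), in scanner intensity units, for the vehicle and BMP7 arrays; the line joining them is the net signal. The miR-145 spots stand 5178 to 6172 units above their background with vehicle and 2462 to 3274 with BMP7, while the miR-143 spots stand 579 to 1572 and 239 to 836 units above it.

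The vehicle spots of miR-143 came in neighbouring pairs that differed. The 2 in row 6 of print block 15 had a local background of 3706 and 3764 units, and the 2 in row 11 had 3175 and 3264. Only the row 11 spots, with the lower background, passed the detection rule. On the BMP7 array the same places had backgrounds of 4953, 4870, 5094 and 5122 units, with no such step.

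After background correction and quantile normalization, miR-145 had log2 values of 12.65, 12.58, 12.72 and 12.68 with vehicle and 12.05, 12.21, 12.05 and 12.02 with BMP7. The spots of the arrays did not overlap, and the log2 difference, BMP7 minus vehicle, was -0.57 ± 0.05 (SE), a 1.49-fold lower level. With plain background subtraction and median scaling it was -0.31 and the spots overlapped. It was negative at each of the 4 places on the array, from -0.36 to -0.67. Among the 65 detected miRNAs, whose median difference was -0.03, 23.1% had every BMP7 spot below every vehicle spot and 18.5% had every one above. Both shares include miRNAs that passed the detection rule on 1 array only, more often the vehicle array, so they are a description only. This split of 15 lower and 12 higher became 22 and 10 with no normalization, 15 and 15 with median scaling and 12 and 16 with scaling on the Cy3 control spots. MiR-145 held place 16 from the lowest, and it was not among the 7.69% at least 2-fold lower or the 4.62% at least 2-fold higher.

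MiR-143 had log2 values of 10.90, 10.81, 11.40 and 11.38 with vehicle and 10.87, 11.15, 11.19 and 11.28 with BMP7. The spots overlapped, and the log2 difference was 0.0015 ± 0.18 (SE), smaller than its error. No fold is given, because with BMP7 the probe was not well above background and its bound is not above 1. By place the difference was -0.03, 0.34, -0.21 and -0.10. The change of miR-145 minus that of miR-143 was -0.57 ± 0.19 on the log2 scale (SE over spots), a value that rests on a miR-143 probe with 0 of 4 BMP7 spots past the detection rule.

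**Figure D2:**
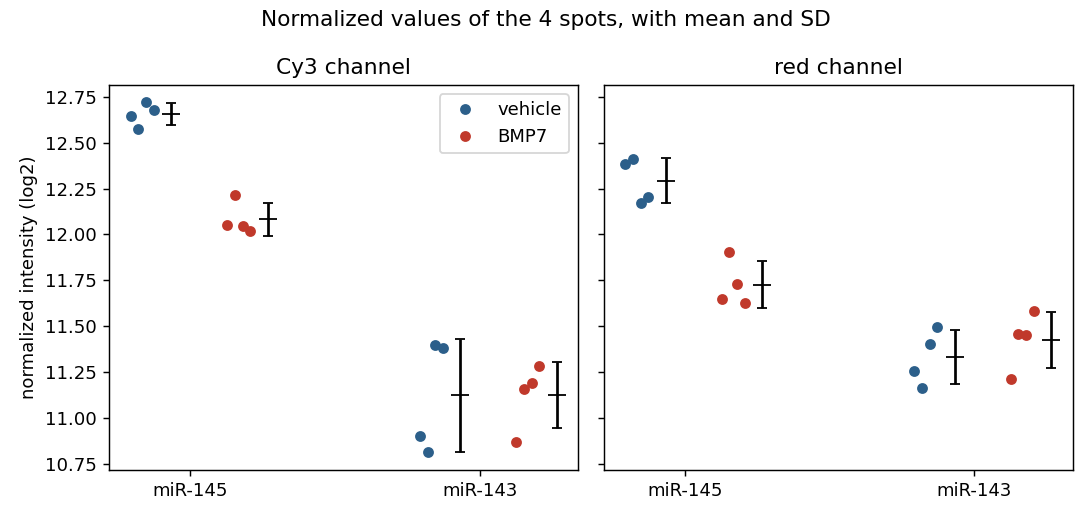
Normalized log2 intensity of each of the 4 spots of miR-145 and miR-143 in the Cy3 channel (left) and the red channel (right), vehicle in blue and BMP7 in red, with mean and SD in black. The miR-145 spots of the arrays are apart in both channels, with means of 12.65 and 12.08 in Cy3 and of 12.29 and 11.73 in red, and the miR-143 spots overlap in both.

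The same scans hold a second, red channel, whose content the sources used here do not give. There the local background was low beside the spots, between 167 and 364 units around both probes, and all 4 spots of both passed the same detection rule on both arrays. The brightness of miR-145 was 5884, 5994, 5041 and 5181 units with vehicle and 2959, 3505, 3131 and 2971 with BMP7. These spots did not overlap, and the net signal was 1.86-fold lower with BMP7. After normalization the log2 difference was -0.57 ± 0.09 (SE), the lowest value with this processing among the 65 miRNAs detected in the Cy3 channel. Some probes not detected in the Cy3 channel were lower in the red one, such as miR-323 at -1.52 and miR-370 at -0.62. In the red channel 9.23% of the 65 had every BMP7 spot below every vehicle spot, and 12.3% had every one above.

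MiR-143 in the red channel had a brightness of 2458, 2261, 2753 and 2940 units with vehicle and 2295, 2575, 2650 and 2833 with BMP7. The spots overlapped, and the normalized log2 difference was 0.09 ± 0.11 (SE). The change of miR-145 minus that of miR-143 was -0.66 ± 0.14 here.

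Only 4 of the 65 detected miRNAs (6.15%) had their spots apart and lower with BMP7 in both channels. They were miR-145, let-7c, miR-26a and miR-320, the last 3 of them named after their values were seen. Let-7c was at -1.03 and -0.20 on the log2 scale in the Cy3 and red channels, and miR-26a at -0.40 and -0.30. MiR-320 was not well above background with BMP7, so it entered through the vehicle array, where it is high. It was at least 1.21-fold lower in the Cy3 channel and at -0.47 in the red one. Let-7c shares print block 13 with miR-145, and its Cy3 difference was -0.32 against the other probes there. MiR-26a and miR-320 lie together in block 9, where 22 of 23 probes were negative in the red channel. Against the other probes there, the Cy3 difference was -0.26 for miR-26a and -0.72 for miR-320, the latter near background with BMP7. Of the 4, only miR-145 was not below the other probes of its block in this sense, at 0.18. Blocks 13 and 9 had the lowest block medians in the red channel, -0.20 and -0.17. The net red signal of miR-145, divided by its net Cy3 signal, was 0.992, 1.11, 0.773 and 0.846 with vehicle and 1.047, 0.979, 1.111 and 1.072 with BMP7. These ratios overlapped. The ratio of the mean net signals moved by 0.18 on the log2 scale for miR-145, against a median size of 0.70 over the 34 miRNAs detected on both arrays. For miR-143 the same ratio of spots was 1.62 to 3.57 with vehicle and 3.04 to 8.13 with BMP7, with a low net Cy3 signal under it, down to 239 units.

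The place of the probes on the array moved with these values. Per the exports, all 4 spots of a probe lie in 1 print block, for each of the 377 probes, so the spread between spots does not hold differences between blocks. The spots of miR-145 lie in block 13. There 22 of 22 probes had a negative difference in the Cy3 channel, among them 15 that were detected on neither array, and it was the only block of the 16 with no positive value. Its median of -0.73 was the lowest of the block medians, which reached up to 0.62. In the same block the local background was 1588 units higher with BMP7, the largest such shift among the blocks. Its 12 Cy3 control spots were at 27626 ± 2366 units with BMP7 and 31858 ± 4937 with vehicle (SD). Their log2 change of -0.21 did not stand out. It held place 7 from the lowest of the 16 blocks, which ran from -0.39 to 0.13.

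Set against its own block, miR-145 in the Cy3 channel was not lower. The median of the other 21 probes was -0.75, 16 of them had lower values than miR-145, and its change minus that median was 0.18. The order differed for the brightness before background correction. There miR-145 was at -0.32, the other probes had a median of 0.17, and the difference was -0.48. In the red channel all 22 probes of the block were negative as well, with a median of -0.19 for the other 21, and miR-145 was the lowest of the 22. The next lowest was miR-184 at -0.39, and miR-145 minus the median of the others was -0.37. With each level set against the median level of the block instead, miR-145 was at 0.04 in the Cy3 channel and at -0.17 in the red channel, with overlapping spots in both.

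MiR-143 lies in block 15, where 20 of 24 probes had a positive difference in the Cy3 channel. The other 23 had a median of 0.34, and the change of miR-143 minus that median was -0.34, with 19 of the 23 above it. In the red channel the other probes had a median of 0.11, and miR-143 differed from it by -0.02. The Cy3 control spots of this block were at 24036 ± 5148 units with BMP7 and 21899 ± 4168 with vehicle (SD, n = 12). Their log2 change of 0.13 was the highest of the 16 blocks. With each change taken against the median change of the other probes of its block, miR-145 minus miR-143 in the Cy3 channel was 0.52. This is opposite in sign to the value without this step. It was 0.46 with levels set against the block's median level. The sign stayed negative at -0.45 with brightness set against the block's median brightness, and at -0.16 with scaling on the block's Cy3 control spots. The part of the print block in the differences of both probes was not tested.

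**Figure D3:**
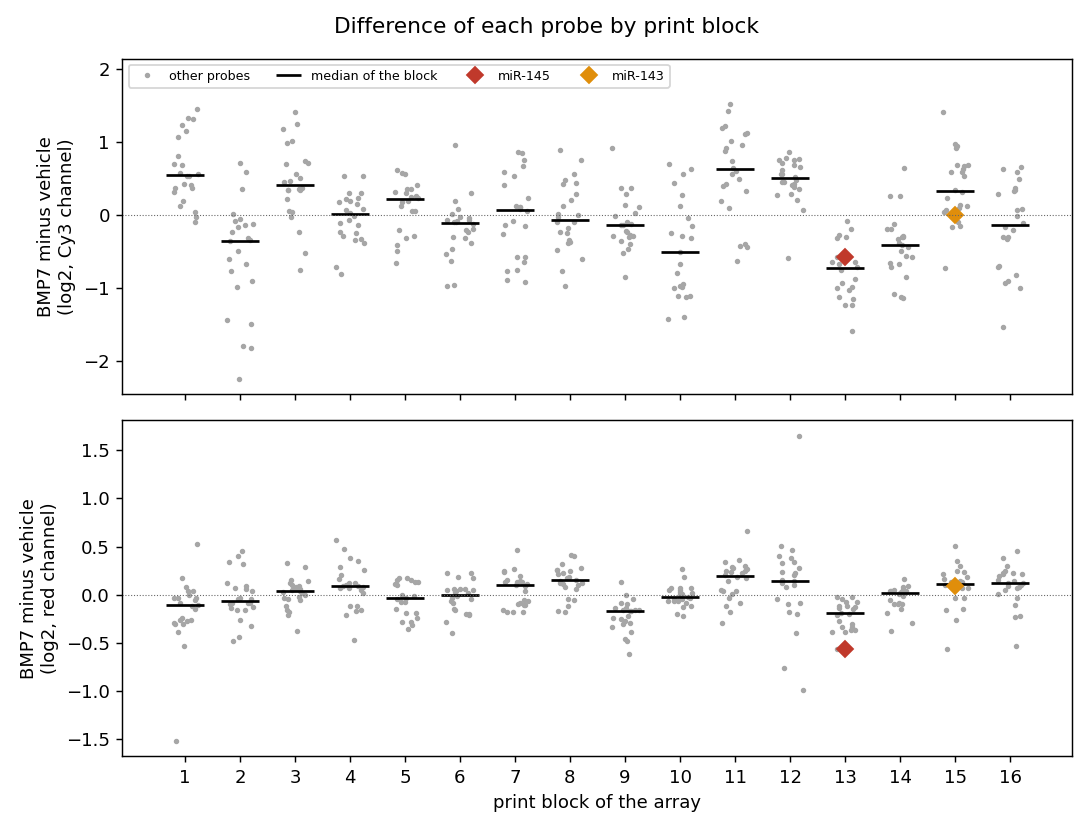
Log2 difference, BMP7 minus vehicle, of each probe by print block in the Cy3 channel (top) and the red channel (bottom); grey points are the other probes, black bars the block medians, and diamonds miR-145 (red, block 13) and miR-143 (orange, block 15). In the Cy3 channel miR-145 at -0.57 lies above the median of its block (-0.73), and in the red channel it is the lowest point of its block.

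The authors' deposited table gives the opposite direction for miR-145. It lists 0.135 with BMP7 and 0.0818 with vehicle, a fold of 1.65 higher. For miR-143 the authors' deposited table lists 0.124 and 0.0864, a fold of 1.43 higher. Higher values with BMP7 were listed there for 92.6% of 339 array probes, and for 82.8% of the 64 detected miRNAs among them. The log2 folds of 0.72 for miR-145 and 0.52 for miR-143 in the authors' deposited table compare with a median of 0.54 over its array probes, so that miR-145 lay 0.18 above that median and miR-143 0.02 below it. They held places 96 and 176 of 339 from the highest.

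These deposited ratios could be traced to the spots. The Cy3 brightness over the red brightness, with no background subtracted, was 2.36 ± 0.11 for miR-145 with BMP7 and 1.68 ± 0.11 with vehicle (SD, n = 4 spots), without overlap. For miR-143 it was 2.17 ± 0.07 and 1.77 ± 0.12, also without overlap. Divided by the mean ratio of the 16 spots named Control_1, which was 17.5 with BMP7 and 20.5 with vehicle, these gave the deposited values within 0.032%. Division by Control_1 alone adds 0.22 to every fold on the log2 scale. Before it, miR-145 was at 0.50, since its log2 brightness changed by -0.81 in the red channel and by -0.32 in the Cy3 channel. With the local background taken from both channels, and without Control_1, the log2 change of the ratio was -0.20 for miR-145 and -0.80 for miR-143.

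MiRNAs were ranked by likeness to each member, as the distance in the normalized log2 values of the 2 arrays in the Cy3 channel. This measure sets the brightness of different probes side by side, so it describes position on the arrays and not amounts of RNA. Closest to miR-145 were miR-351 (distance 0.25, difference -0.69 ± 0.14), miR-99a (0.38, -0.34 ± 0.14) and miR-125b (0.45, 0.06 ± 0.13). Of these only miR-351 had its spots apart, and in the red channel all 3 had positive differences, from 0.14 to 0.20, while miR-145 was negative there. The 3 lie in blocks 16, 8 and 5, in the same order. Against the other probes of their blocks in the Cy3 channel they were at -0.59, -0.30 and -0.17, beside 0.18 for miR-145. The red medians of those blocks were 0.12, 0.15 and -0.04, beside -0.20 for block 13 of miR-145. Closest to miR-143 were miR-497, miR-181b and miR-501, at distances of 0.05 to 0.12, each like miR-143 close to its background, with 1 spot past the detection rule on the BMP7 array.

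The pair was also set among 18 miRNAs known from smooth muscle and stroma, 17 of them on the array. Of these, 10 were detected, and their median difference was 0.09 beside -0.03 over all 65. MiR-145 and miR-26a had their spots apart and lower with BMP7, miR-21, miR-214 and miR-221 had theirs apart and higher, and the other 5, miR-143 among them, overlapped. Over all 65 the shares were 23.1% lower and 18.5% higher. MiR-221 was detected with BMP7 only, so it entered through the array where it is high. The largest differences were those of miR-23b (1.45 ± 1.02, with overlapping spots), miR-214 (0.91 ± 0.06) and miR-221, at least 1.83-fold higher since it was not well above background with vehicle. MiR-26a at -0.40 ± 0.08 and miR-21 at 0.31 ± 0.12 are named after their values were seen. MiR-214 and miR-221 both lie in block 11, whose median of 0.62 was the highest of the blocks. Against the other probes of their blocks, miR-214 was at 0.31, miR-221 at 0.27, miR-26a at -0.26 and miR-21 at -0.25, so that the sign of miR-21 turned. In the red channel miR-21 was at -0.04, miR-26a at -0.30 and miR-214 at 0.24.

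For miR-21, miR-26a, miR-214 and miR-221, and for miR-222, which overlapped at 0.05 ± 0.27, the mature mouse sequences from RefSeq (GRCm38.p6) are given 5′ to 3′, with the seed, bases 2 to 8, in capitals. They show which of these smooth muscle miRNAs share a seed.
mmu-miR-21a-5p: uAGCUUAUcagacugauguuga
mmu-miR-26a-5p: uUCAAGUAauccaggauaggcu
mmu-miR-214-3p: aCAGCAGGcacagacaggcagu
mmu-miR-221-3p: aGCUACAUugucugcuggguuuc
mmu-miR-222-3p: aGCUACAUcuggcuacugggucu
MiR-221 and miR-222, known for growth of smooth muscle cells, share 1 seed, and the other 3 have seeds of their own.

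MiR-143 is also counted among 16 miRNAs known to promote adipogenesis, 15 of them on the array. Of these, 7 were detected, or 3 where 3 of 4 spots must pass, and both arrays detected only 2 of them, so no median is given. MiR-21, miR-30a-5p and miR-92 had their spots apart and higher with BMP7, and none had them apart and lower, beside 18.5% and 23.1% over all 65. MiR-30a-5p and miR-92 were detected with BMP7 only, so they entered through the array where they are high. The bound was at least 1.66-fold higher for miR-30a-5p, at least 1.58-fold for miR-92, and at least 1.36-fold for miR-378, whose spots overlapped. MiR-143, miR-103 (-0.08 ± 0.52) and miR-107, detected with vehicle only and at least 1.11-fold lower, had overlapping spots. MiR-103 and miR-107 are named after their values were seen. Against the other probes of their blocks miR-92 was at 0.82, miR-30a-5p at 0.13, miR-378 at 0.08, miR-103 at -0.17, miR-107 at -0.24, miR-21 at -0.25 and miR-143 at -0.34.

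**Figure D4:**
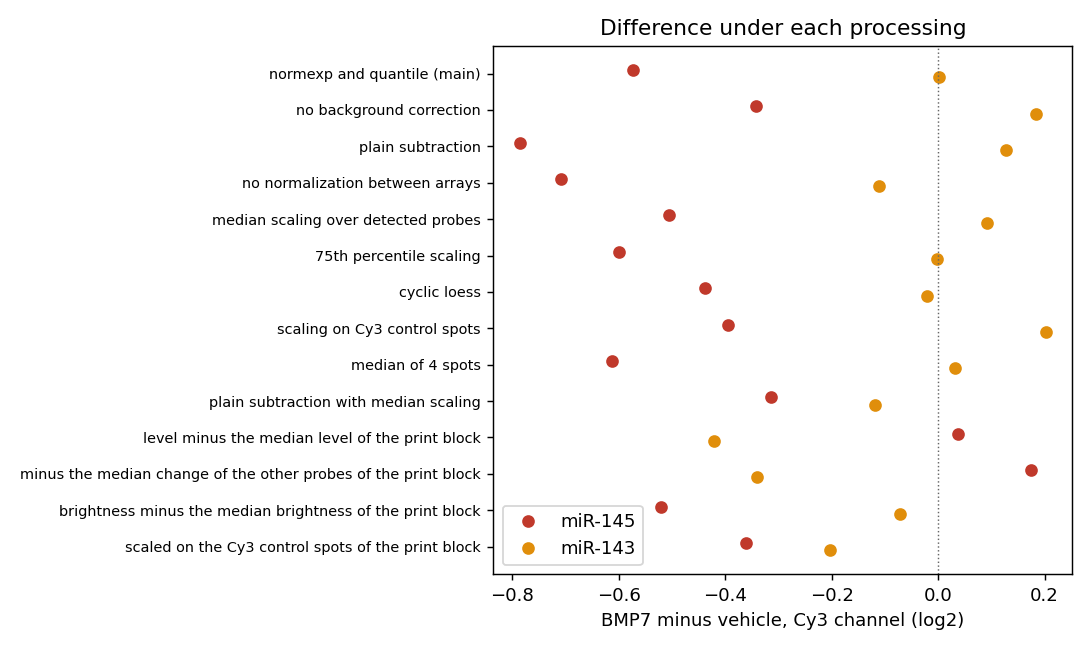
Log2 difference, BMP7 minus vehicle, in the Cy3 channel of miR-145 (red) and miR-143 (orange) under the main processing (top) and 13 alternatives; the dotted line marks 0. MiR-145 lies between -0.79 and -0.31 except in 2 alternatives that set it against its print block (0.04 and 0.18), and miR-143 lies on both sides of 0, from -0.42 to 0.20.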

How the data were processed

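The data are 2 miRNA arrays, 1 per group, read with GenePix. Per the file headers, the exports were not normalized, and the deposited intensity columns give the mean brightness of each spot in a green channel, read for Cy3, and a red channel. The deposited sum and ratio of the background-subtracted means can be negative and were treated as a score; the local background of every spot was solved from them. The authors' deposited table and the deposited matrix hold the same ratio for 339 array probes. The matrix columns had medians of 0.0776 (BMP7) and 0.0509 (vehicle) over 355 rows; for both members the values were rebuilt from the spots as Cy3 over red brightness relative to Control_1, with no centring.

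Background was corrected by normexp with an offset of 50 (limma 3.58.1, R 4.3.3). Without control spots, the arrays were then quantile normalized, and log2 values were averaged over the 4 spots (Python 3.11.15, numpy 2.4.6, pandas 2.3.3). Of 377 probes, 280 matched a mouse miRNA gene by name in the RefSeq table (GRCm38.p6), 3 of the names through synonyms, and 256 were kept with 1 probe each. The sources used here do not give the build behind the array, so no coordinates are printed. The steps were tested on simulated data. Both simulated arrays had the local backgrounds of the vehicle array and no shift between print blocks. That test therefore does not cover the background and block differences seen between these arrays.

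A miRNA seen on a single array is given as a bound: its mean there against the higher of its own mean and the lowest detected mean on the other array. The list median uses fitted values and stayed as given with bounds in their place. Alternatives covered background correction, scaling, the summary of spots and the print block. Members, lists and the likeness rule were chosen with earlier results of these data known. Up to 3 members per list with the largest differences are named, and others as stated.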

Additional observations from a re-analysis of the deposited data

How the results depend on the processing

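No paired analysis was possible because each group has 1 array. All comparisons with the print block, and plain subtraction joined with median scaling, were chosen after seeing the data; the cause of the shifts was not tested. In the Cy3 channel 21 alternatives were run, and 8 of them left out 1 spot. Those 8 could only be negative, because the miR-145 spots of the arrays did not overlap. Among the other 13, miR-145 was positive in 2 and negative in the rest. It was at -0.34 with no background correction, -0.79 with plain subtraction, -0.71 with no normalization and -0.44 with cyclic loess. Use of all Cy3 control spots for scaling gave -0.39, and use of those in its block gave -0.36. Plain subtraction joined with median scaling gave -0.31, with spots overlapping. MiR-145 turned to 0.18 against the median change of the other probes of its block. With levels set against the block's median level it was at 0.038. The same 2 settings gave -0.34 and -0.42 for miR-143, and 0.52 and 0.46 for the change of miR-145 minus that of miR-143, which was -0.91 with plain subtraction, -0.20 with that and median scaling and -0.16 with block control spots. In the red channel miR-145 was at -0.79 with no normalization, and at -0.37 and -0.17 (spots overlapping) in the 2 block settings; miR-143 was at -0.095 in the second. The log2 folds of the authors' deposited table went to 0.18 and -0.025 against its median, and to -0.20 and -0.80 with background subtracted from the rebuilt ratio, for miR-145 and miR-143. Leaving out 1 spot gave -0.62 to -0.55 for miR-145, -0.10 to 0.09 for miR-143 and -0.65 to -0.50 for their difference in the Cy3 channel, and -0.63 to -0.53 and 0.04 to 0.16 in the red channel. Between 22 and 32 miRNAs had spots apart over 8 alternatives, against 27, with 12 to 22 of them lower. The low signal over background limits what can be said of miR-143.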
